A study of Mus musculus with 18 samples.

Results

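The genes described here are 10 markers of the osteoclast, out of 46983 genes in the count tables. They were chosen by name as genes that mark this cell, with earlier results of these data known. All 10 have a row in both the bone marrow and the adipose table. Osteoclasts are multinucleated cells of the monocyte lineage that resorb bone. Precursors receive the cytokine RANKL through the receptor RANK, the transcription factor NFATc1 then drives the osteoclast programme, precursors fuse, and the mature cell attaches through the αvβ3 integrin, acidifies a sealed space and digests matrix with secreted proteases. Several of these genes are also used by other cells of marrow and fat, such as macrophages, megakaryocytes, lymphocytes and fibroblast-like stromal cells, so none of them names an osteoclast when read alone in bulk RNA.

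By role, the receptors are Tnfrsf11a (RANK, chromosome 1, 105780718 to 105847981), Calcr (the calcitonin receptor, chromosome 6, 3685680 to 3764714), Oscar (a costimulatory immunoreceptor, chromosome 7, 3609813 to 3616157) and Itgb3 (the integrin β3 chain, chromosome 11, 104608000 to 104670476). The transcription factor is Nfatc1 (chromosome 18, 80606205 to 80713071). Genes of cell fusion are Dcstamp (chromosome 15, 39745930 to 39760938) and Ocstamp (chromosome 2, 165393760 to 165400405), both membrane proteins, and Atp6v0d2 (chromosome 4, 19876841 to 19922605), a subunit of the proton pump that also takes part in fusion. The secreted enzymes are Acp5 (tartrate-resistant acid phosphatase, chromosome 9, 22126727 to 22135711) and Ctsk (the collagen-degrading protease cathepsin K, chromosome 3, 95499256 to 95509362). Positions are those of GENCODE M21 on GRCm38. Exons of Acp5 overlap a gene model on the opposite strand and the strand setting of the counting is not given, so Acp5 counts are uncertain to that extent. No other member has such an overlap.

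The libraries came from male C57BL/6J mice in 4 groups. These were bone marrow with glutamine (5 libraries), bone marrow with HFD alone (4), adipose with glutamine (5) and adipose with HFD alone (4). HFD, the usual short form of high-fat diet, stands in the descriptions of both arms, and the genotype entries read Glutamine or Ctrl with the treatment. Titles read mBMSC for marrow and mAT-MSC VAT for adipose. The labels used here give no age, glutamine dose, route or duration, and nothing in them ties each library to an animal of its own, so p-values speak only of the spread among these libraries, part of which may be technical. Libraries are called by the number pair in their label (18+20, for example), whose meaning is not stated, and 1 marrow column of the glutamine arm carries a pair found in no marrow title and is called unnumbered.

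Counts are reads near the 3′ end of transcripts, so levels in CPM, a gene's counts scaled to a common library total, were compared between genes without a length correction. Library totals ran from 13970788 to 37984603 counts in marrow and from 35871168 to 59529238 in adipose. At least 100 counts were reached by 1755 to 7323 genes per marrow library, with the fewest in HFD 23+28 and in the unnumbered glutamine library (1831), and by 11361 to 14469 genes per adipose library. A gene at 0 counts may lie at up to 3 counts, which is 0.0790 to 0.215 CPM in a marrow library and 0.0504 to 0.0836 CPM in an adipose library, for counting error only. Stromal markers (Pdgfra, Pdgfrb, Dcn, Lum, Thy1, Ly6a) were read in both tissues, at a summed 1712 to 5167 CPM in marrow and 14304 to 21312 CPM in adipose. The marrow libraries also held osteoblast genes (52050 to 239947 CPM summed over 8 genes) and neutrophil granule genes (2698 to 54233 CPM over 8 genes). In bulk RNA fewer cells of a type and less RNA per cell cannot be told apart.

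The members most restricted to the osteoclast were nearly or wholly without counts. Calcr and Oscar had 0 counts in all 18 libraries. Ocstamp and Dcstamp had 0 counts in all 9 marrow libraries. In adipose, Ocstamp had 93 counts in glutamine 18+20 and 81 in HFD 14+17, and 0 in the other libraries. Dcstamp had 145 counts in adipose glutamine 13+15, 2 in glutamine 18+20, 79 in HFD 14+17, and 0 in the rest. HFD 14+17 was thus the adipose library in which both fusion genes had more than 3 counts, and neither gene separated the arms. At this depth no level above the floor was detectable for Calcr or Oscar in either tissue.

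**Figure D1:**
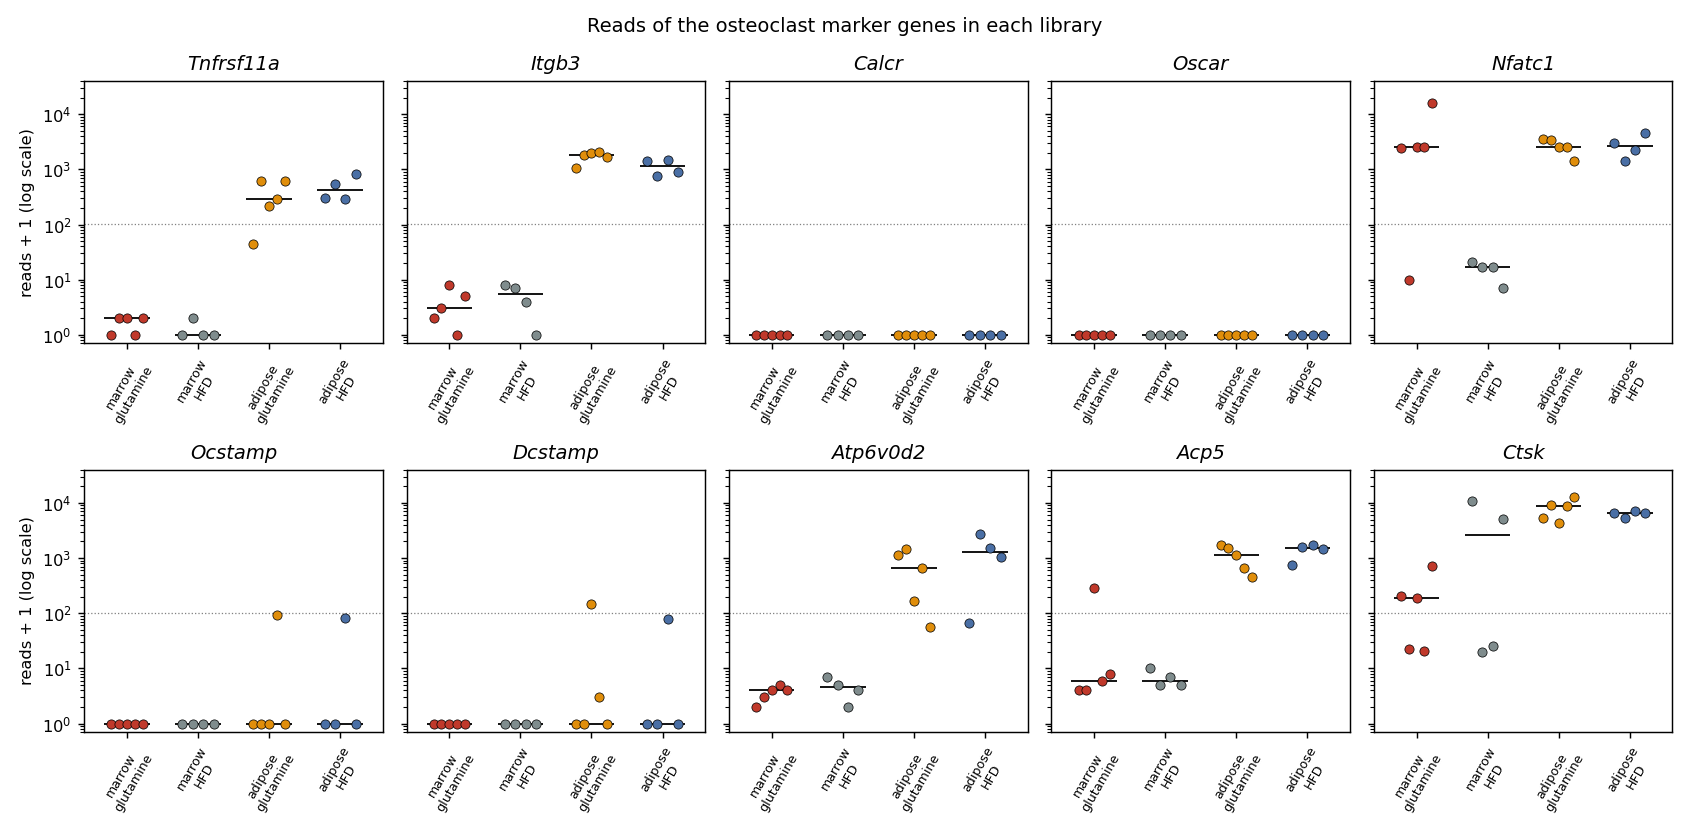
Counts plus 1 on a log axis for each osteoclast marker gene in every library (points) with the group median (bar), and the dotted line at 100 counts. Calcr and Oscar sit at 0 counts throughout, Tnfrsf11a, Itgb3 and Atp6v0d2 stay at 7 counts or fewer in marrow, and Nfatc1 and Ctsk range over orders of magnitude between marrow libraries.

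In marrow the order rested on single libraries. Nfatc1 averaged 136 ± 309 CPM and Ctsk 67.3 ± 117 CPM (SD, n = 9 each), each SD larger than its mean. Acp5 followed at 1.20 ± 2.96, Itgb3 at 0.124 ± 0.0914, Atp6v0d2 at 0.116 ± 0.0497 and Tnfrsf11a at 0.0213 ± 0.0283 CPM (SD, n = 9 each). The last 3 lie at or under what 3 counts are worth in the shallowest library. Apart from Atp6v0d2 over Tnfrsf11a, no neighbours in this order differed by more than the larger SD. At most 3 members reached 100 counts in any 1 marrow library (glutamine 18+20), and none did in glutamine 10+12, HFD 5+11 or HFD 14+17, whereas 5 to 7 members did in each adipose library.

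In adipose 6 members were expressed, led by Ctsk. Over the 9 adipose libraries Ctsk averaged 153 ± 51.2 CPM, Nfatc1 56.9 ± 21.5, Itgb3 29.8 ± 7.59, Acp5 26.3 ± 12.5, Atp6v0d2 22.2 ± 22.8 and Tnfrsf11a 8.77 ± 5.65 CPM (SD, n = 9 each). Ctsk and Nfatc1 differed by more than the larger of their SDs, as did Nfatc1 and Itgb3, whereas Itgb3 and Acp5, Acp5 and Atp6v0d2, and Atp6v0d2 and Tnfrsf11a did not. Dcstamp at 0.489 ± 1.01 and Ocstamp at 0.389 ± 0.778 CPM (SD, n = 9 each) followed far below and did not differ beyond their spread.

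The receptor genes were read almost only in adipose. Tnfrsf11a, the RANK gene, had 0, 1, 1, 0 and 1 counts in marrow glutamine libraries (4+6, 10+12, 18+20, 25+27 and unnumbered, the order used for this group throughout), and 0, 1, 0 and 0 counts in marrow HFD libraries (1+3, 5+11, 14+17 and 23+28). In adipose it stood at 1.05, 10.4, 4.13, 6.05 and 13.0 CPM with glutamine (4+6, 10+12, 13+15, 18+20 and 25+27), and at 5.48, 15.2, 5.71 and 18.0 CPM with HFD (same HFD order as in marrow). The adipose arms overlapped, with the lowest library in the glutamine arm and the highest in the HFD arm. Itgb3 had 1, 2, 7, 0 and 4 counts in marrow glutamine libraries and 7, 6, 3 and 0 in marrow HFD libraries. Its adipose levels were 25.7, 30.6, 38.9, 42.2 and 35.0 CPM with glutamine, against 26.2, 21.4, 28.5 and 20.0 CPM with HFD. Of the glutamine libraries 4 lay above every HFD library for Itgb3, and 1 (4+6) lay among them.

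Nfatc1 gave the widest contrast between marrow libraries. Marrow glutamine libraries held 2432, 9, 2548, 2529 and 16086 counts of this transcription factor gene, against 20, 16, 16 and 6 counts in marrow HFD libraries. The glutamine libraries other than 10+12 thus held at least 2432 counts, and no HFD library exceeded 20. The marrow means were 244 ± 398 CPM with glutamine (SD, n = 5) and 0.464 ± 0.12 CPM with HFD (SD, n = 4). In adipose Nfatc1 stood at 83.2, 57.1, 49.8, 53.2 and 30.1 CPM with glutamine and at 56.6, 40.2, 43.5 and 98.8 CPM with HFD, with the arms overlapping. T cells also use Nfatc1, and their marker list (Cd3e, Cd3d, Cd4, Cd8a, Trac) summed to 0.0641 to 0.430 CPM in marrow glutamine libraries and 0.230 to 0.321 CPM in marrow HFD libraries, with no gene at 100 counts.

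Relative to its mean, Atp6v0d2 varied most among the 6 expressed members in adipose. In marrow it had 1, 2, 3, 4 and 3 counts with glutamine and 6, 4, 1 and 3 counts with HFD. Its adipose levels were 27.5, 25.0, 3.20, 13.8 and 1.16 CPM with glutamine, against 1.20, 74.7, 29.9 and 23.4 CPM with HFD. Each arm held 1 library near 1 CPM, glutamine 25+27 and HFD 1+3, and HFD 5+11 and HFD 14+17 lay above every glutamine library.

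The enzymes differed from each other in marrow. Acp5 had 3, 3, 283, 5 and 7 counts in marrow glutamine libraries and 9, 4, 6 and 4 in marrow HFD libraries, so that glutamine 18+20 alone held over 100. Ctsk had 203, 21, 186, 20 and 731 counts in marrow glutamine libraries and 10907, 19, 24 and 5183 in marrow HFD libraries. For Ctsk 2 HFD libraries lay far above every glutamine library and the other 2 lay among the lowest, and the means were 12.0 ± 17.8 CPM with glutamine (SD, n = 5) and 136 ± 157 CPM with HFD (SD, n = 4). In adipose Acp5 stood at 40.5, 25.8, 22.5, 13.6 and 9.47 CPM with glutamine and at 13.9, 45.1, 33.5 and 32.7 CPM with HFD. Adipose Ctsk stood at 128, 157, 83.0, 182 and 269 CPM with glutamine and at 123, 148, 137 and 146 CPM with HFD. Both enzymes overlapped between adipose arms, and the HFD libraries of Ctsk lay inside the range of the glutamine libraries.

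**Figure D2:**
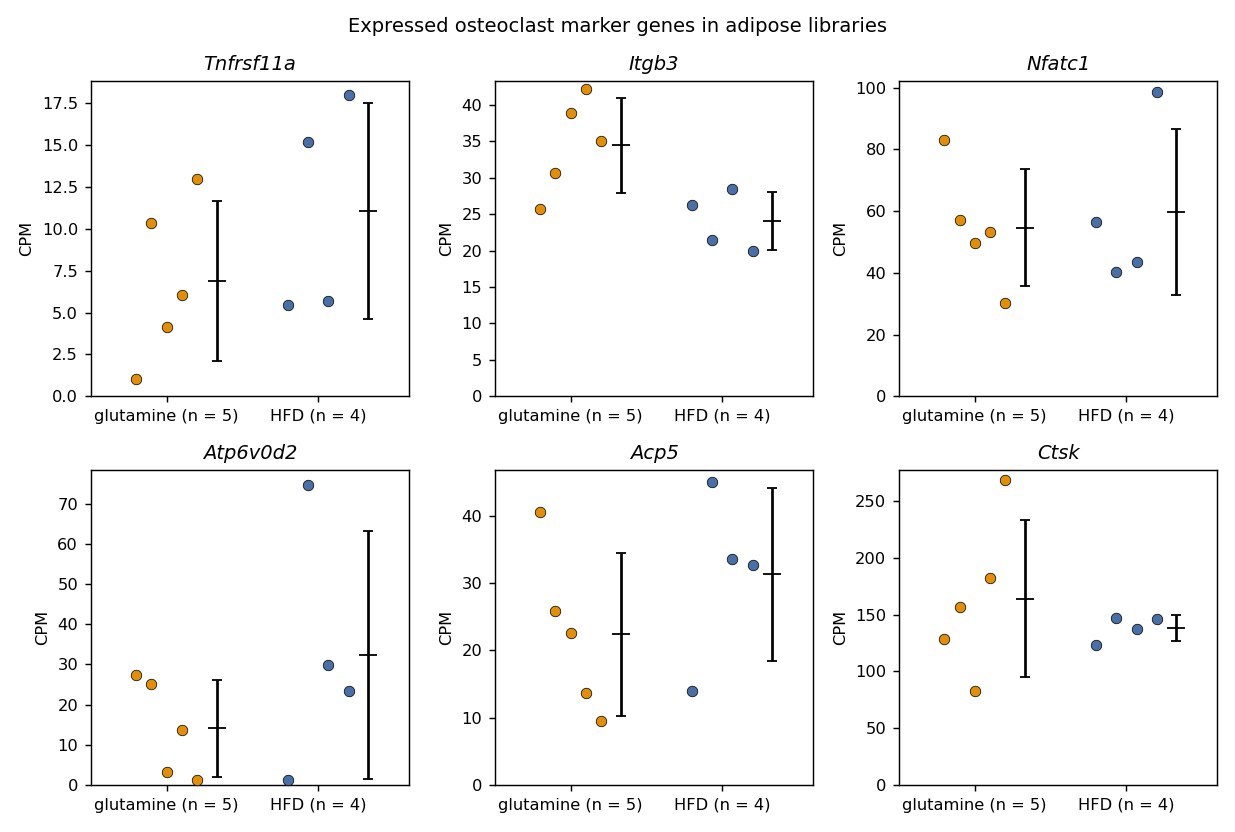
Level in CPM of the 6 expressed osteoclast marker genes in each adipose library (points), glutamine at left and HFD at right, with the mean and SD beside each arm. Every gene overlaps between arms, and Atp6v0d2 has a library near 1 CPM in each arm.

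The first comparison asked whether glutamine changed these genes in each tissue. None of the members passed the test in either tissue. Differences were tested with edgeR's quasi-likelihood test over all genes with Benjamini-Hochberg adjustment, called at an adjusted p under 0.05, on log2 fold changes of glutamine over HFD. In adipose 6 members passed the count filter and 0 were called by edgeR or DESeq2, with 0 at an unadjusted p under 0.05. Of all 15114 genes tested 0% were called by edgeR, 624 had an unadjusted p under 0.05 and DESeq2 called 31. The 6 members had 2 positive and 4 negative changes with a median of -0.32, beside -0.02 over all genes. The fitted changes were 0.50 ± 0.306 for Itgb3, 0.22 ± 0.275 for Ctsk, -0.15 ± 0.340 for Nfatc1, -0.50 ± 0.475 for Acp5, -0.72 ± 0.805 for Tnfrsf11a and -1.23 ± 0.939 for Atp6v0d2 (log2 ± SE, n = 5 and 4, edgeR adjusted p = 1.00 each). Taking 2 SE on either side, the Itgb3 change lay between -0.11 and 1.12 and that of Atp6v0d2 between -3.11 and 0.65 on the log2 scale, so the data leave room for changes of either sign. Leaving out 1 library put the Atp6v0d2 change between -1.64 and -0.36, the smaller change without HFD 5+11, that of Tnfrsf11a between -1.08 and -0.40, that of Acp5 between -0.84 and -0.25 and that of Itgb3 between 0.42 and 0.59. The sign turned for Ctsk (-0.03 without glutamine 25+27) and Nfatc1 (0.21 without HFD 23+28). None of the 6 had arms that did not overlap in CPM, beside 1.66% of the genes tested.

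In marrow 2 members passed the filter and edgeR called 0, with 1 at an unadjusted p under 0.05. Of all 6041 genes tested 0.132% were called (8 genes), and 1127 had an unadjusted p under 0.05. Nfatc1 had a fitted change of 9.14 ± 3.04 (log2 ± SE, n = 5 and 4, edgeR adjusted p = 0.197, unadjusted p = 0.00265), and DESeq2 gave it no adjusted p and did not call Ctsk. Its arms did not overlap in CPM, with the lowest glutamine library at 0.644 CPM (9 counts) and the highest HFD library, 14+17, at 0.571 CPM (16 counts). They did overlap once library totals were scaled by TMM, and 3.77% of the genes tested did not overlap in CPM. Without the unnumbered library the Nfatc1 change was 6.25. Ctsk had a fitted change of -3.59 ± 2.42 (edgeR adjusted p = 0.470), which was -6.24 without the unnumbered library and -2.33 without HFD 23+28.

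The second comparison asked whether the glutamine effect differed between marrow and adipose. Of the 6 members tested only Nfatc1 was called, with a marrow effect larger by 9.41 ± 2.05 (log2 ± SE, edgeR adjusted p = 0.0432), or 9.19 relative to the median of all genes. In all 11.9% of 15203 genes were called here, and 7.87% were called in the direction of Nfatc1, so 1 call among 6 members is near the share over all genes. The call was lost when libraries were scaled by relative log expression (adjusted p = 0.0501) or by their upper quartile (adjusted p = 0.0528), and when the number pair entered as a replicate block (6.30, adjusted p = 1.00). It was kept by DESeq2, with no count filter and with the stricter filter. The block fit used only 16 libraries, without the unnumbered marrow library and adipose glutamine 13+15. The block and the missing libraries therefore cannot be told apart in that fit. Leaving out 1 library at a time gave adjusted p from 0.0240 to 0.0770, above the threshold for 10 of the 18 libraries, and without the unnumbered glutamine library the value was 6.73. The other members had differences of 3.08 ± 1.54 for Acp5, 2.37 ± 1.81 for Tnfrsf11a, 1.08 ± 1.57 for Atp6v0d2, -0.52 ± 1.39 for Itgb3 and -3.61 ± 2.12 for Ctsk (log2 ± SE, edgeR adjusted p from 0.205 to 0.919). Among these other members only Ctsk passed the count filter in marrow alone, and the rest entered this fit through their adipose counts. Single libraries moved the differences. The Acp5 difference was 0.72 without marrow glutamine 18+20, that of Tnfrsf11a was 1.40 without the unnumbered library and 5.10 without marrow HFD 5+11, and that of Atp6v0d2 was 0.08 without adipose HFD 5+11. Leaving out 1 library put Ctsk between -6.00 and -2.41 and Itgb3 between -1.47 and -0.20.

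The third comparison set marrow against adipose. Each tissue has its own count table, so tissue and table cannot be told apart. Of 6 members tested 4 were lower in marrow, with differences of -7.25 ± 1.00 for Tnfrsf11a, -6.04 ± 0.855 for Itgb3, -5.67 ± 0.933 for Atp6v0d2 and -3.81 ± 0.846 for Acp5 (log2 bone marrow over adipose ± SE, n = 9 each, edgeR adjusted p = 6.09e-06, 7.46e-06, 3.84e-05 and 0.000896). None of these 4 passed the count filter in marrow alone. They entered this fit through their adipose counts, so a lower marrow value was largely fixed beforehand. In all 51.7% of genes were called and 40.5% were called lower in marrow, and the median difference of all genes was -1.43. Relative to that median Tnfrsf11a stood at -5.82, Itgb3 at -4.61, Atp6v0d2 at -4.24 and Acp5 at -2.39. Ctsk at 0.22 ± 1.03 and Nfatc1 at -0.35 ± 0.868 were not called (adjusted p = 0.869 and 0.745), and stood at 1.64 and 1.07 relative to the median. Marrow counts of the 3 lowest genes are in single digits, so the size of their fitted difference depends on the prior count.

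The scaling decided part of this comparison. With TMM factors 1708 genes were called higher and 6150 lower in marrow. The counts were 6524 higher and 2465 lower under relative log expression (RLE) factors, 5144 and 3222 under upper-quartile factors, and 4160 and 2262 in DESeq2, and the median difference of all genes was 1.94, 0.89 and 1.98 in these fits. Tnfrsf11a, Itgb3 and Atp6v0d2 were called lower in marrow under all 4. They entered each of these fits through their adipose counts, so that direction was largely fixed beforehand whatever the scaling. Acp5 was called lower with TMM factors but not with the others (-0.999, -1.34 and -1.01). Ctsk was called higher in marrow under those others (4.09, 4.01 and 4.09), as was Nfatc1 (3.55, 3.43 and 3.55). Relative to the median of all genes Acp5 lay between -2.99 and -2.23, Ctsk between 1.64 and 3.12 and Nfatc1 between 1.07 and 2.55 over the 4 scalings.

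**Figure D3:**
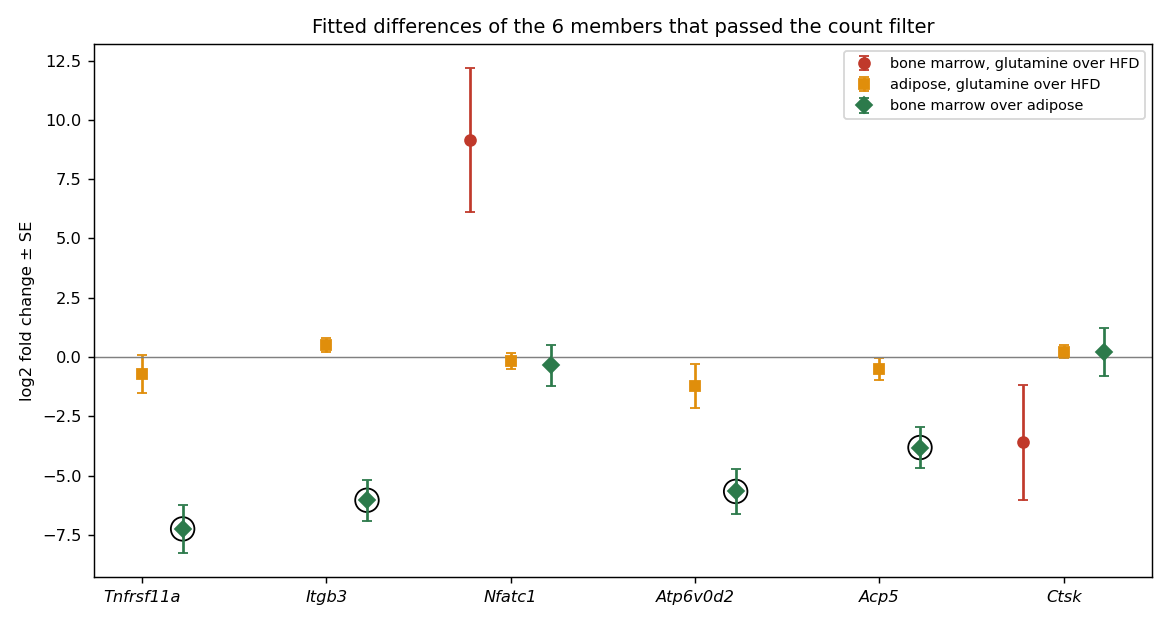
Fitted log2 fold changes with SE for the 6 members that passed the count filter, for glutamine over HFD in bone marrow (circles) and adipose (squares) and for bone marrow over adipose (diamonds, TMM factors), with a ring around values at an adjusted p under 0.05. The ringed values are Tnfrsf11a, Itgb3, Atp6v0d2 and Acp5 between tissues, none of which passed the count filter in marrow alone. Acp5 was not called under the other scalings, where Ctsk and Nfatc1 were called higher in marrow.

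The low marrow counts were set beside the genes' adipose counts. Of 13375 genes with at least 1000 counts summed over adipose, 48.1% to 87.5% had fewer than 100 counts in a given marrow library, and together these genes had counts there equal to 0.0297% to 0.0717% of their summed adipose counts. The share differed widely between genes, with a lower quartile of 0.00466% to 0.0291% and an upper quartile of 0.0415% to 0.0807% over the 9 marrow libraries. The members' own low counts can be set beside the counts at that share. In the marrow libraries under 100 counts Acp5 had 41 counts beside 37.7 at the share, Nfatc1 67 beside 53.9, Ctsk 84 beside 117, Atp6v0d2 27 beside 36.6, Itgb3 30 beside 54.2 and Tnfrsf11a 4 beside 15.4. The low counts of Acp5 and Nfatc1 lay slightly above that share and those of the others below it, with Tnfrsf11a farthest below. The source of these low counts was not tested. Of 8790 genes with at least 100 counts in all 9 adipose libraries 85.8% reached 100 in at least 1 marrow library, with a median of 3 marrow libraries. Of the 4 members in that class, Nfatc1 and Ctsk reached 100 in 4 and 5 marrow libraries, Acp5 in 1 and Itgb3 in none.

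**Figure D4:**
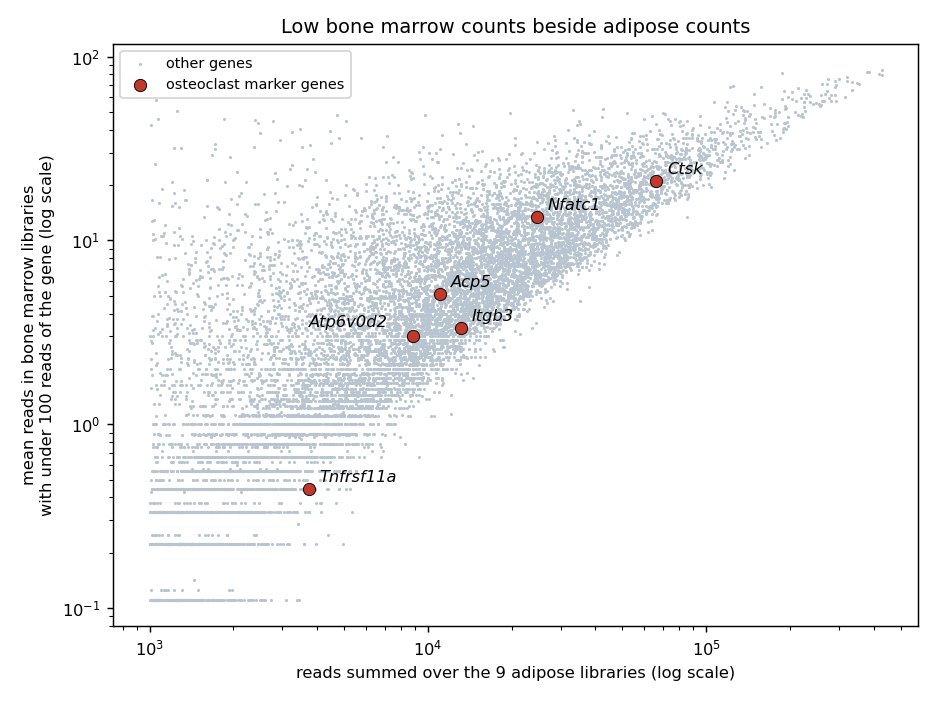
Mean counts in the marrow libraries that held fewer than 100 counts of a gene, against counts summed over the 9 adipose libraries, both on log axes, for genes with at least 4 such libraries and a mean above 0 (grey) and the osteoclast marker genes (red). The members lie within the cloud of other genes, Ctsk highest and Tnfrsf11a lowest.

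Across the 9 adipose libraries the members did not move as 1 group. By the root mean square (RMS) difference of centred log2 CPM, the closest member pairs were Ctsk and Itgb3 at 0.523 and Acp5 and Nfatc1 at 0.683, while Acp5 and Atp6v0d2 lay 1.47 apart. Glutamine 25+27 was the lowest library for 3 of 6 members and the highest for 1 (Ctsk), and HFD 5+11 and HFD 23+28 were each the highest for 2. Among 13191 genes compared, the nearest to Acp5 were Rabggtb (0.282), Lgals3 (0.301), which encodes the lectin galectin-3 of macrophages, and Dock5 (0.342), known for its part in osteoclast resorption. The nearest to Atp6v0d2 were farther off, Syngr1 (0.946), Pianp (0.962) and Igsf6 (0.975). Ctsk lay nearest to Appl2 (0.158), Calcrl (0.203) and Adar (0.212), and Itgb3 to Rnf168 (0.104), Ist1 (0.111) and Inpp5k (0.130). Nfatc1 lay nearest to Arl2bp (0.148), Relb (0.211), a subunit of NF-κB, and Skil (0.215), and Tnfrsf11a to Mcoln2 (0.347), Ap4m1 (0.394) and Stard3 (0.438). These are descriptions over 9 libraries, and a gene of small variation has near neighbours for that reason alone.

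**Figure D5:**
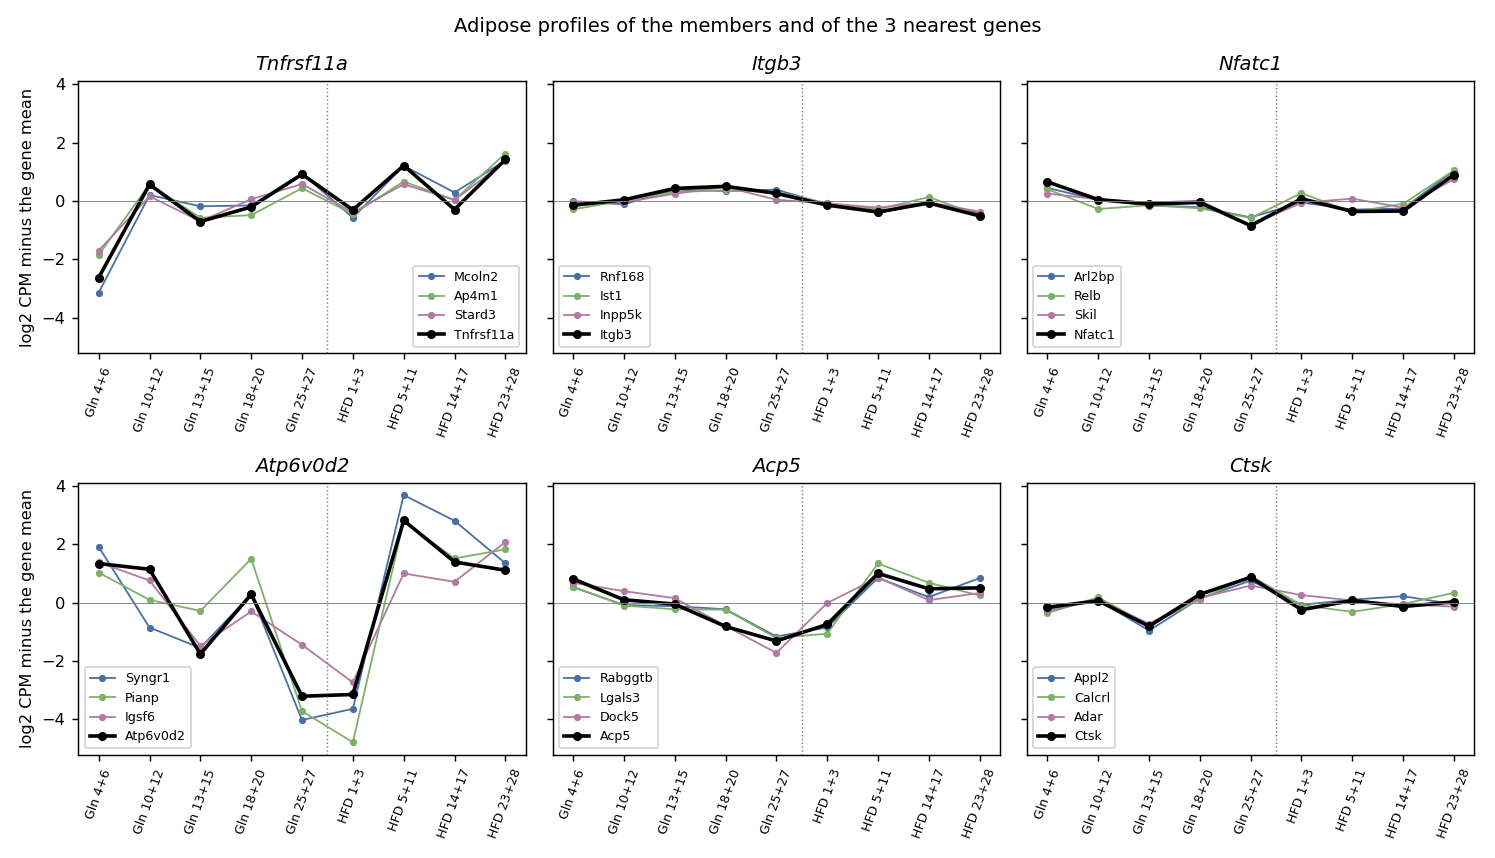
TMM-scaled log2 CPM minus the gene mean in each adipose library, glutamine at left and HFD at right, for each expressed member (black) and the 3 genes with the smallest RMS difference (colours). Lines only join the points of a gene. Atp6v0d2 swings most, lowest in glutamine 25+27 and HFD 1+3.

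Other genes of the pathway were read in 4 lists. Stromal regulators of osteoclast formation had 9 of 10 genes tested in adipose, 8 with a negative change with glutamine and 0 called (median -0.17, all genes -0.02). Tnfsf11, which encodes RANKL, had at most 1 count in any marrow library, and stood at 0.0477 to 6.78 CPM in adipose glutamine libraries and 0.574 to 13.6 CPM in adipose HFD libraries. Tnfrsf11b, which encodes the RANKL decoy receptor osteoprotegerin, averaged 30.8 ± 19.2 CPM in adipose with glutamine (SD, n = 5) and 42.3 ± 26.1 CPM in adipose with HFD (SD, n = 4). The adipose arms overlapped for both genes.

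Precursor signalling genes had 16 of 16 tested in adipose, 12 with a negative change and 0 called (median -0.39). Csf1r, the receptor for the precursor growth factor M-CSF, stood at 52.2 ± 22.2 CPM with glutamine (SD, n = 5) and 74.0 ± 17.9 CPM with HFD (SD, n = 4). Resorption genes had 13 of 16 tested in adipose, 7 positive and 0 called (median 0.08), and precursor repressors 6 of 6, with 5 negative and 0 called (median -0.26). At an unadjusted p under 0.05 there were 3 signalling genes, 2 repressor genes and 0 of the other lists in adipose, and DESeq2 called 0. In marrow edgeR called 0 genes of the 4 lists between arms, with 2 of 6 stromal, 2 of 6 signalling, 3 of 7 resorption and 0 of 6 repressor genes tested at an unadjusted p under 0.05, while DESeq2 called 0, 2, 1 and 2. Of all 6041 genes tested there, 1127 had an unadjusted p under 0.05 and DESeq2 called 727. The glutamine effect was more positive in marrow than in adipose for Nfkb2, an NF-κB subunit (7.77 ± 2.25), Plcg2, a phospholipase of calcium signalling (9.22 ± 2.99), and Slc4a2, a bicarbonate exchanger (8.35 ± 2.49). It was more negative for the ephrin Efnb2 (-7.37 ± 1.97) and the kinase Ptk2b (-8.42 ± 2.34, log2 ± SE, edgeR adjusted p from 0.0432 to 0.0484), and no gene at all was called there under RLE or upper-quartile scaling or in the fit with the replicate block. Tested there were 9 stromal, 16 signalling, 13 resorption and 6 repressor genes, and edgeR called 11.9% of all 15203 genes. DESeq2 called Nfkb2, Efnb2 and Ptk2b in the same directions but not Plcg2 or Slc4a2. It also called Fcer1g, Clcn7, Irf8 and Lilrb4a more negative in marrow, among 1061 genes called in all.

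Between tissues the balance of the lists turned with the scaling. With TMM factors, where 40.5% of all genes were called lower in marrow, stromal regulators had 3 of 9 tested called lower (Tnfsf11 -7.39 ± 1.46, Wnt5a -4.47 ± 1.01, Sema3a -4.27 ± 1.18) and 0 higher, and precursor signalling had 5 of 16 lower and 1 higher (log2 bone marrow over adipose ± SE, edgeR). The lower ones were the adaptor Traf6 (-3.95 ± 1.01), the myeloid transcription factor Spi1 (-3.75 ± 0.870), the receptor Trem2 (-6.36 ± 0.830), the kinase Syk (-3.71 ± 1.02) and the repressor Prdm1 (-6.11 ± 0.981). The AP-1 gene Fos was higher in marrow (1.64 ± 0.453). Of 13 resorption genes the kinase Src (-6.15 ± 0.989) and the vesicle adaptor Plekhm1 (-3.47 ± 0.955) were lower and Car2 (10.31 ± 0.778) was higher, and of 6 repressors 0 were called. With RLE factors 3 stromal regulators were higher and 1 lower, 9 signalling genes higher and 3 lower, 8 resorption genes higher and 1 lower, and 5 repressors higher and 0 lower. Upper-quartile factors gave 2 and 1 stromal, 5 and 3 signalling, 5 and 1 resorption and 3 and 0 repressor genes higher and lower, and DESeq2 gave 3 and 0, 3 and 3, 5 and 1, and 4 and 0. Called lower under all 4 scalings were Trem2, Traf6, Prdm1 and Src, and called higher under all 4 were Fos and Car2. In marrow alone only 6 stromal, 6 signalling and 7 resorption genes passed the count filter. A gene that did not pass there entered these fits through its adipose counts. Its lower marrow value was then largely fixed beforehand under each scaling. Car2, the carbonic anhydrase that supplies protons for bone resorption and is also a red cell gene, had 1551 ± 863 CPM in marrow with glutamine (SD, n = 5) and 2078 ± 1695 CPM with HFD (SD, n = 4), against 6.58 ± 6.84 CPM in adipose with glutamine and 5.18 ± 2.23 CPM with HFD. Its counts in every marrow library, 14809 to 90879, set it apart from the members. An erythroid list of 8 genes, added after the data were seen, summed to 4810 to 17140 CPM in marrow and 1802 to 17033 CPM in adipose, and its part in the Car2 level was not tested. Siglec15, a sialic acid receptor of osteoclasts, had 0 counts in all 18 libraries.

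Of 12 macrophage markers 11 had a negative change with glutamine in adipose (median -1.08), with 6 at an unadjusted p under 0.05 and 0 called by edgeR or DESeq2, and their summed level was 262 to 674 CPM in glutamine libraries and 525 to 1656 CPM in HFD libraries. Lipid-associated macrophage markers had 8 of 10 negative (median -0.40), at a summed 3192 to 4438 CPM with glutamine and 3208 to 4916 CPM with HFD. The 4 members with negative fitted changes were Acp5, Atp6v0d2, Tnfrsf11a and Nfatc1, and the part of macrophages in their values was not tested. In marrow the macrophage list summed to 225 to 1832 CPM with glutamine and 420 to 1587 CPM with HFD. Within it Adgre1, which encodes the macrophage surface protein F4/80, had at most 4 counts in a marrow library. With TMM factors edgeR called 7 of the 12 lower in marrow (Adgre1, Cd163, Fcgr1, Mrc1, C1qa, C1qc and C1qb), beside 40.5% of all genes. Only 3 of the 12 passed the count filter in marrow alone, so lower values of the rest were largely fixed beforehand. Lyz2, the lysozyme gene that neutrophils also express, was the only 1 called higher (3.24 ± 0.627, log2 bone marrow over adipose ± SE). With RLE factors 5 were called lower and 2 higher (Mpeg1 and Lyz2). Megakaryocyte markers, from a lineage that also expresses Itgb3, summed to 28.9 to 99.1 CPM in adipose with glutamine and 54.7 to 207 CPM in adipose with HFD, and their part in the Itgb3 level was not tested. In marrow that list summed to 0.118 to 33.3 CPM with glutamine and 0.290 to 75.1 CPM with HFD, where Itgb3 had at most 7 counts. Endothelial genes in adipose summed to 735 to 1579 CPM with glutamine and 522 to 1139 CPM with HFD, and their part in the Itgb3 level was not tested.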

How the data were processed

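Bulk RNA of bone marrow and adipose samples was sequenced at transcript 3′ ends from 30 ng of total RNA, and read 1 alone was analysed, per the labels' protocols. The deposited tables hold raw counts per gene as whole numbers with no sign of normalization. The submitters' processing notes name the build GRCm38 and the tools HTSeq 0.11.3, STAR 2.7.10b and FastQC 0.12.1. For the annotation used, strand setting and duplicate handling, the answer is not given in the sources used here. No molecular identifiers are named, so copies of 1 molecule are not told apart.

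Of 46983 gene symbols 40115 matched GENCODE M21 directly, all members among them. Fits used edgeR 4.0.16 in R 4.3.3 (filterByExpr, TMM factors, quasi-likelihood F test, two-sided, Benjamini-Hochberg over all genes tested), each tissue on its own 9 libraries, and all 18 libraries in 4 groups for the difference of effects and between tissues. The SE is the absolute log2 fold change over the square root of F. CPM values were computed from unscaled library totals. Centred log2 CPM used a prior count of 2 and genes with a mean of at least 1 CPM. The tests were tried on simulated counts. Members and lists were chosen with earlier results of these data known. All members are named. Of the 4 pathway lists, genes past the threshold in edgeR with TMM factors are named. Calls under the other scalings are given mostly as counts, and called genes of the cell type lists are not all named. Csf1r, Tnfrsf11b, Siglec15 and Adgre1 were added for their role after their values were seen. The genes most like a member are the 3 with the smallest RMS difference, with unnamed models left out. As alternatives served upper-quartile and RLE (relative log expression) factors, no filter and a stricter one (100 counts in 4 libraries), DESeq2 1.42.0, a block on the number pair (over the 16 libraries whose pair is in both tissues), leaving out each library and, added after the data were seen, leaving out the 2 marrow libraries with the fewest genes at 100 counts.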

Additional observations from a re-analysis of the deposited data

Results flagged for a closer look

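In 4 of 17 sets of a member in a group, 1 library stood far from the others by Dixon's criterion. A set entered only where at least 1 library had 100 counts. The Acp5 and Dcstamp sets below entered only through the library then flagged. The nominal rate of 1 in 20 also assumes normally distributed values. The number of flagged sets is therefore a description and cannot be read against chance. Acp5 stood at 9.07 CPM (283 counts) in marrow glutamine 18+20, with the next library at 0.415 CPM. Ctsk stood at 43.3 CPM (731 counts) and Nfatc1 at 953 CPM (16086 counts) in the unnumbered marrow glutamine library, with the next libraries at 8.74 and 105 CPM. Dcstamp stood at 2.83 CPM (145 counts) in adipose glutamine 13+15, with the next at 0.0416 CPM. The glutamine effect on Nfatc1 differed between tissues by 9.41 on the log2 scale in the test of that difference, larger in marrow.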

How the results depend on the processing

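Genes called between marrow arms (8) numbered 0 with relative log expression, upper-quartile factors or the stricter filter, 202 with no filter, 727 with DESeq2 and 0 to 19 when 1 library was left out. Genes called between adipose arms (0) numbered 31 with DESeq2. For the difference of effects 1 member and 1811 genes were called, against 0 and 0 with relative log expression factors, upper-quartile factors or the replicate block. DESeq2 called 1061 genes there, and leaving out 1 library gave 0 to 1 members and 0 to 2681 genes. Same-numbered libraries did not deviate together (r from -0.00906 to 0.0302 over 8 pairs, own number highest in 2). The check compares different tissues, with sparse marrow libraries, so it cannot tell whether same-numbered libraries share animals.

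Some single values turned sign. In adipose, leaving out 1 library put Ctsk between -0.03 and 0.39 and Nfatc1 between -0.36 and 0.21. Between tissues Ctsk was -2.82 with the replicate block, -1.51 without the 2 thinnest marrow libraries and -0.96 to 0.50 when 1 library was left out, and Nfatc1 was 3.55, 3.43 and 3.55 with relative log expression factors, upper-quartile factors and DESeq2. The cause of these changes was not tested. Of the other alternatives for single members 397 kept direction and side of the threshold, 16 lost the call and 3 gained it. Without the 2 thinnest marrow libraries the Nfatc1 difference of effects was 6.71 (adjusted p = 0.0391). Marrow depth and sparse detection limit every marrow value.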

Other observations

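Other genes of the osteoclast pathway were also read in marrow in single libraries rather than by arm. Csf1, the gene of the precursor growth factor M-CSF, had 14, 24, 892, 17 and 12 counts in marrow glutamine libraries (4+6, 10+12, 18+20, 25+27 and unnumbered) and 31, 32, 15525 and 12 counts in marrow HFD libraries (1+3, 5+11, 14+17 and 23+28). Its receptor gene Csf1r had 5, 6, 11, 7 and 5 counts with glutamine and 12, 5, 4379 and 1 with HFD, so that HFD 14+17 held most of both. Tnfrsf11b, the osteoprotegerin gene, had 1, 5, 809, 9 and 160 counts with glutamine and 16902, 10, 5 and 2 with HFD. Irf8, a transcription factor that restrains osteoclast formation, had 12, 7, 320, 14 and 62 counts with glutamine and 4826, 8711, 7 and 8 with HFD. These genes were picked after their values were seen, and edgeR called none of Csf1, Tnfrsf11b and Irf8 between marrow arms, while Csf1r did not pass the count filter there and DESeq2 called Irf8 lower with glutamine.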
